A study of Mus musculus with 6 samples.

Results

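The AP-1 and related basic leucine zipper (bZIP) genes followed here are Fos, Fosb, Fosl1, Fosl2, Jun, Junb, Jund, Atf3, Maff and Mafk. They were picked by gene symbol, as the Fos and Jun families with Atf3 and the small Maf factors Maff and Mafk, and all 10 have a row among the 46504 features of the expression table. PolyA RNA of the gastrocnemius, the main calf muscle, came from wild type mice in 2 groups of 3 libraries. Both groups are labelled day 4, and restraint means that mice were confined to 50 mL tubes for 3 h, repeated every 4 days. The strain, the age and the interval between the last restraint and tissue collection are not given in the sources used here, and neither is whether each library came from a mouse of its own. The p-values therefore reflect spread among the libraries alone, part of which may be technical.

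AP-1 is a family of dimers that bind DNA through a basic region and pair through a leucine zipper. Jun proteins can pair with themselves or with Fos proteins, while Fos proteins need a partner, and the mix of subunits sets which genes are switched on or off. Most of these genes are immediate early genes, transcribed within minutes of a stimulus from factors already in the cell, whereas Jund is usually expressed without stimulation. Atf3 is a bZIP factor induced by many stresses that pairs with Jun proteins and often represses. Small Maf proteins have no activation domain and act as partners of the CNC and BACH factors. In skeletal muscle, contraction, stretch and injury are known to induce several members.

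Total counts were 44290720 to 51125779 per library, mitochondrial genes took 13.2% to 19.3% of them, and the 2 ends of that range were restraint 2 and control 2. Muscle fibre markers were abundant in every library, with a summed level of 149436 to 166425 CPM over 10 genes. CPM denotes counts relative to the library's total, here scaled by TMM factors, which correct for differences in RNA composition. Bulk RNA cannot tell a change in RNA per cell from a change in the number of cells of a type.

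Atf3, Jun and Maff rose under restraint, Atf3 by 4.21 and Jun and Maff by 1.25 and 1.34 on the log2 scale. Of the other 7 members, 6 did not pass edgeR's test and Fosl1 was not tested. The levels of Jund, Junb and Fosb overlapped between groups. By edgeR's quasi-likelihood test at an adjusted p of 0.05, 3 of the 9 members tested were called higher, where 1.26% of the 15448 features tested were. None was called lower by edgeR, DESeq2 or limma voom, where edgeR called 0.563% of features lower and 1.83% in either direction, DESeq2 1.99% lower and voom 0.473% lower. At an unadjusted edgeR p under 0.05, 6 members were higher and none lower, against 7.98% and 7.63% of all features. DESeq2 called 5 members higher, adding Fos and Mafk, where it called 3.24% of features higher, and voom called 2, Atf3 and Jun, where it called 0.887%. Fosl1 had too few counts to be tested, so the counts above leave it out. The median log2 fold change was 0.77 over the 9 members tested and -0.0053 over all features tested.

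**Figure D1:**
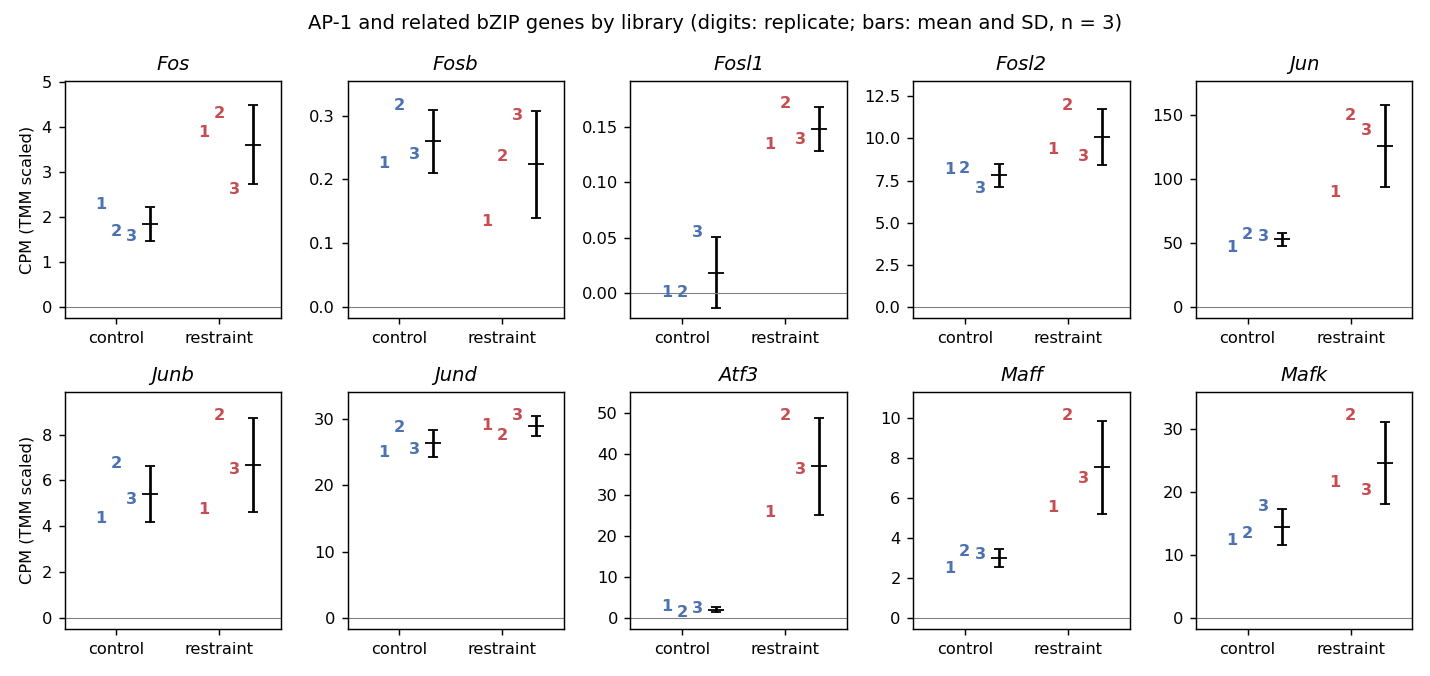
TMM-scaled CPM (y axis, linear, 1 scale per panel) of the 10 genes in 3 control (blue) and 3 restraint (red) libraries. Each digit is the library with that replicate number, and bars give the mean and SD. The restraint libraries of Atf3 lie at 25.7 to 49.4 CPM, above control libraries at 1.22 to 2.61. Those of Junb, Jund and Fosb overlap with controls.

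Transcription of these genes is known to depend on short elements just upstream of their start sites, so the 120 bases before the RefSeq start are shown for the 3 genes that rose, for Fos, and for Jund as a member with little difference between groups. Sequences are RefSeq on GRCm38.p6, 5′ to 3′ along the gene, and capitals mark matches to the motifs named after them. Windows were found for 9 of the 10 members. Maff has 3 annotated starts, and its middle and downstream starts are shown.
Atf3: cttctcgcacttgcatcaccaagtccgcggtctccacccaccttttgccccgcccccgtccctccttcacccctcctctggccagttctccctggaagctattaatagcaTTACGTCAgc
Jun: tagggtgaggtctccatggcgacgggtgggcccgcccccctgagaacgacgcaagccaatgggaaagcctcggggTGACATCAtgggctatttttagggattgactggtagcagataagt
Maff, middle start: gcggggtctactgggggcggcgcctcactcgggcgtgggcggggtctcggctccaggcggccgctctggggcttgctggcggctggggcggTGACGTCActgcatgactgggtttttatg
Maff, downstream start: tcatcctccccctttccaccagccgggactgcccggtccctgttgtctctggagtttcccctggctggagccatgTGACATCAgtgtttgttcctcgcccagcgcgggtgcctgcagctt
Fos: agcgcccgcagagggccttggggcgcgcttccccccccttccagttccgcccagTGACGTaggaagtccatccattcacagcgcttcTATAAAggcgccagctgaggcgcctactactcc
Jund: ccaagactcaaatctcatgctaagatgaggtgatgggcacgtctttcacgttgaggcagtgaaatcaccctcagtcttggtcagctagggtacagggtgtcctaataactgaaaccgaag
These windows lie at chr1:191183334-191183453 (minus strand, Atf3), chr4:95052223-95052342 (minus, Jun), chr15:79347400-79347519 and chr15:79348282-79348401 (plus, Maff), chr12:85473770-85473889 (plus, Fos) and chr8:70697619-70697738 (plus, Jund).

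Motifs were searched on both strands in the 120 bases before each start. Atf3 carries TTACGTCA from 10 to 3 bases before its start, found in 0.329% of all 32851 RefSeq windows. The middle start of Maff carries the palindromic cyclic AMP response element TGACGTCA from 29 to 22 bases before it, found in 1.24% of windows. Jun carries TGACATCA, a variant of the AP-1 element, from 45 to 38 bases before its start, and so does the downstream start of Maff. That variant was found in 2.1% of windows. Fos carries the shorter core TGACGT, which overlaps the full cyclic AMP element and occurs in 4.55% of windows, 66 to 61 bases before its start, and a TATAAA box, found in 6.34%, at 33 to 28 bases. The windows of Jund, Junb, Fosb, Fosl2 and Mafk and the upstream start of Maff held none of these letters. No member's window held the AP-1 element TGACTCA (2.30% of windows) or a CArG box (0.749%), the binding site of serum response factor. Among the 14100 windows of tested genes, the shares were 0.504% for TTACGTCA, 1.91% for TGACGTCA and 6.62% for TGACGT. They were 1.06% for TGACATCA, 3.29% for TATAAA, 1.62% for TGACTCA and 0.688% for the CArG box. Bases further upstream than 120 were not searched, so sites there, in Fos or any other member, would not appear here. The core also lies, on the opposite strand, within the Atf3 match, and on both strands within that of the middle Maff start. GENCODE places the start of Atf3 a few bases further upstream, inside its match. TTACGTCA and TGACATCA were added to the search after these members' sequences had been read, and the window length was set after the matches were seen, so the shares for these motifs describe how common the letters are and are no evidence that the members stand apart. A match is a description of letters, and binding was not measured.

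Atf3 (gene 11910, chromosome 1, 191170296 to 191183333 on GRCm38) had the largest log2 fold change of the 9 members tested. It stood at 2.61, 1.22 and 2.13 CPM in the controls and at 25.7, 49.4 and 36.2 CPM in the restraint libraries, each in the order 1 to 3. The lowest restraint library was 9.83 times the highest control library. Mean CPM was 1.99 ± 0.708 (SD, n = 3) in controls and 37.1 ± 11.9 in restraint, an 18.7-fold ratio of means. The log2 fold change was 4.21 ± 0.318 (SE, 95% interval 3.49 to 4.93), and edgeR gave an adjusted p of 0.0015. It ranked 4 by p and 25 by log2 fold change among all features. It kept its call with each library left out, with log2 fold changes of 3.95 to 4.45 and adjusted p of 0.000924 to 0.0167. Its row pools 4 transcripts, of which 3 were assembled by the authors from these reads, so the level covers more than the RefSeq transcript.

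Jun (gene 16476, chromosome 4, 95049036 to 95052222) encodes c-Jun, the founding partner of AP-1 dimers. Its levels were 46.6, 56.8 and 54.7 CPM in the controls and 89.1, 149 and 138 CPM under restraint, in the same order. The groups did not overlap, and restraint 1 was the lowest of its group. The log2 fold change was 1.25 ± 0.188 (SE, 95% interval 0.82 to 1.68), and edgeR gave an adjusted p of 0.0194. The direction held with any library left out, with log2 fold changes of 1.11 to 1.45. The call did not hold without control 1 (adjusted p = 0.134), control 2 (0.0629), control 3 (0.0517), restraint 2 (0.0545) or restraint 3 (0.0787), and held without restraint 1 (0.00264). Junos, a long noncoding RNA that starts upstream of Jun without overlapping it, differed by 0.37 ± 0.176 in log2, at an adjusted p of 0.362.

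Junb (gene 16477, chromosome 8, 84976909 to 84978748) and Jund (gene 16478, chromosome 8, 70697739 to 70700616) encode the other two Jun proteins. Junb stood at 4.33, 6.74 and 5.15 CPM in controls, against 4.74, 8.82 and 6.50 CPM in restraint. Its groups overlapped, and the interval of its log2 fold change of 0.31 ± 0.248 ran from -0.26 to 0.87 (edgeR adjusted p = 0.62). Jund stood at 24.98, 28.7 and 25.4 CPM in controls, against 29.0, 27.5 and 30.5 CPM in restraint. Its groups overlapped too, and its log2 fold change of 0.14 ± 0.101 had an interval of -0.09 to 0.37 (edgeR adjusted p = 0.573). The interval of Jund lies below that of Jun, whose lower end is 0.82.

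Fos (gene 14281, chromosome 12, 85473890 to 85477274), the classical partner of Jun, was counted at low levels of 69 to 201 reads per library. It stood at 2.27, 1.68 and 1.56 CPM in controls, against 3.88, 4.30 and 2.61 CPM in restraint. Every restraint library lay above every control library, as for 6 of the 9 members tested, where 10.6% of all features did so. The margin was narrow, since restraint 3 was 1.15 times control 1. The log2 fold change of 0.97 ± 0.246 (95% interval 0.41 to 1.53) did not pass by edgeR (adjusted p = 0.0972) and passed by DESeq2 (adjusted p = 0.0122). Leaving out single libraries gave 0.82 to 1.16.

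The log2 fold changes of Fosl2 and Fosb did not pass by edgeR, DESeq2 or voom. Fosl2 (gene 14284, chromosome 5, 32136472 to 32157840), which encodes Fra-2, stood at 8.16, 8.23 and 7.03 CPM in controls, against 9.36, 12.0 and 8.90 CPM in restraint. Its groups did not overlap, by a margin of 1.08 times, and its log2 fold change of 0.37 ± 0.152 had an edgeR adjusted p of 0.288. Fosb (gene 14282, chromosome 7, 19302696 to 19310118) had 11, 13 and 13 reads in controls and 6, 11 and 13 in restraint. At this depth its log2 fold change of -0.21 had an interval of -1.24 to 0.83 (edgeR adjusted p = 0.879), so neither a rise nor a fall was detectable.

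Fosl1 (gene 14283, chromosome 19, 5447698 to 5455938), which encodes Fra-1, had 0, 0 and 3 reads in controls and 6, 8 and 6 in restraint. Summed over each group and divided by total counts, restraint was 7.16 times control, with an exact 95% interval of 2.12 to 37.6 that covers counting error in these libraries only. The gene overlaps Ccdc85b, which stood at 25.1 to 40.2 CPM in controls, against 27.1 to 29.4 CPM in restraint. The overlap is partial, since Ccdc85b runs from 5453163 to 5457563. No source used here says whether counting used strand, so reads in the shared stretch cannot be told apart. In controls 1 and 2, which had 0 Fosl1 reads, Ccdc85b stood at 29.7 and 40.2 CPM. The part of Ccdc85b reads in the Fosl1 counts was not tested.

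The small Maf genes were both higher in every restraint library than in every control library. Maff (gene 17133, chromosome 15, 79346621 to 79359078) stood at 2.45, 3.31 and 3.17 CPM in controls, against 5.50, 10.1 and 6.94 CPM in restraint. Its log2 fold change was 1.34 ± 0.239 (SE, 95% interval 0.79 to 1.88), and edgeR gave an adjusted p of 0.0312. The call did not hold without control 1 (adjusted p = 0.175), control 2 (0.0853), control 3 (0.0753), restraint 2 (0.0633) or restraint 3 (0.101), and it missed the threshold by voom (0.0509). Mafk (gene 17135, chromosome 5, 139791536 to 139802653) stood at 12.2, 13.4 and 17.6 CPM in controls, against 21.4, 32.0 and 20.2 CPM in restraint. Its log2 fold change of 0.77 ± 0.204 (95% interval 0.31 to 1.23) did not pass by edgeR (adjusted p = 0.111) and passed by DESeq2 (adjusted p = 0.00901).

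**Figure D2:**
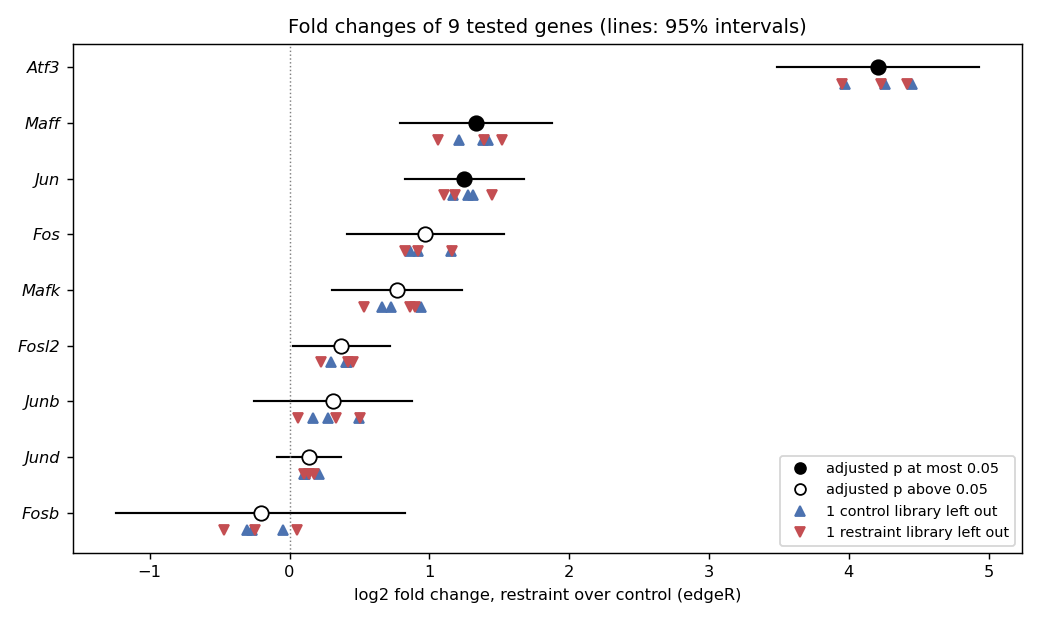
edgeR log2 fold change of restraint over control (x axis) for the 9 genes tested (y axis), with 95% intervals as lines and filled circles for an adjusted p of at most 0.05. Triangles below each line are the values with 1 control (blue) or 1 restraint (red) library left out. Atf3 stays between 3.95 and 4.45. For 7 of the genes leaving out restraint 2, their highest restraint library, gives the lowest value.

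Restraint 2 was the highest restraint library for 7 of the 9 members tested, and restraint 1 the lowest for 5. Leaving out restraint 2 gave the lowest log2 fold change for Atf3 (3.95), Jun (1.11), Maff (1.06), Fos (0.82), Mafk (0.53), Fosl2 (0.23) and Junb (0.058). These are the same 7 genes, so a lower value without restraint 2 follows from its place as the highest and is no separate result. Markers of macrophages were also highest in restraint 2. Their summed level over 10 genes was 50.6 to 71.9 CPM in controls, against 64.3, 196 and 101 CPM in restraint 1 to 3. The edgeR estimate pointed upward for all 10, and the list median was 0.78 in log2. At an unadjusted edgeR p under 0.05, 4 of the 10 were higher and none lower, where 7.98% of all features were higher. Cd68 was the 1 of the 10 called by edgeR, DESeq2 called 1 higher, and voom called none. Only Cd68 lay above control in every restraint library, where 10.6% of all features did so. In restraint 1 the summed level lay within the control range, but single markers did not all do so. Cd68 stood at 2.29 CPM there, against at most 1.41 CPM in controls, and Itgam, Fcgr1 and Mrc1 lay below every control. Neutrophil markers summed to 0.122 to 0.165 CPM in controls, against 0.382 to 1.93 CPM in restraint over 6 genes, with Ly6g at 0 in every library. Only Csf3r of the 6 had enough counts to be tested, and it was not called (edgeR adjusted p = 0.0974). S100a9 alone stood at 0.942 CPM in restraint 2, and Mpo was counted in control 1 only. Of 8 lymphocyte markers only Ighm, an immunoglobulin heavy chain gene, had enough counts to be tested, and edgeR called it lower (adjusted p = 0.0305), at 44.8, 41.3 and 92.1 CPM in controls, against 21.6, 16.9 and 12.7 CPM in restraint. The other 7 stood at no more than 0.225 CPM in any library, with Cd3g at 0 in all 6, so the list's summed level (41.4 to 92.4 CPM in controls, 12.9 to 21.9 in restraint) is that of Ighm. Tendon markers had negative log2 fold changes for all 7 genes, with a median of -0.91. Of these, 4 (Tnmd, Kera, Fmod and Mkx) lay below control in every restraint library, where 11.1% of all features did so. The same 4 had an unadjusted edgeR p under 0.05, where 7.63% of all features were lower at that p. None of the 7 was called by edgeR or voom, and DESeq2 called 2 lower. The summed level of the tendon list was 180.2 to 232 CPM in controls, against 81.6, 200.5 and 150.1 CPM in restraint 1 to 3. The summed levels of the fibre, satellite cell, fibroblast, endothelial, smooth muscle, Schwann cell, adipocyte and erythroid lists overlapped between groups. The part of these cells in the members' levels was not tested.

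Levels of different genes were compared per transcript length, in the authors' TPM values, which divide reads by transcript length before scaling each library to the same total. In controls Jun was highest at 28.7 ± 4.34 TPM (SD, n = 3), followed by Jund at 15.8 ± 1.27, Mafk at 8.91 ± 2.79 and Junb at 5.03 ± 0.816. Maff, Fosl2, Atf3 and Fos came next at 2.68, 2.30, 1.77 and 1.5 TPM, and the ranges of neighbours in this run overlapped. Fosb and Fosl1 were lowest, at 0.111 and 0.0144 TPM. Under restraint the order changed most for Atf3, which came second at 34.1 ± 12.8 TPM after Jun at 69.9 ± 20.3. Jund at 17.8 ± 0.339 and Mafk at 15.4 ± 5.07 followed with overlapping ranges, then Maff at 6.91 and Junb at 6.48, whose ranges overlapped. Fosl2 and Fos stood at 3.06 and 3.04 TPM.

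Jun made up most of the Fos and Jun family transcripts in every library. The 7 genes summed to 49.1, 50.9 and 60.3 TPM in controls 1 to 3 and 76.4, 124 and 101 TPM in restraint 1 to 3. The share of Jun was 51.9%, 52.8% and 55.7% in controls and 63.3%, 71.6% and 71.7% in restraint. The share of Jund was 29.7% ± 1.08 (SD, n = 3) in controls and 18.3% ± 4.16 in restraint, with its own level at 15.8 and 17.8 TPM. The 4 Fos family genes together held 7.41% ± 1.32 in controls and 6.44% ± 1.6 in restraint.

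**Figure D3:**
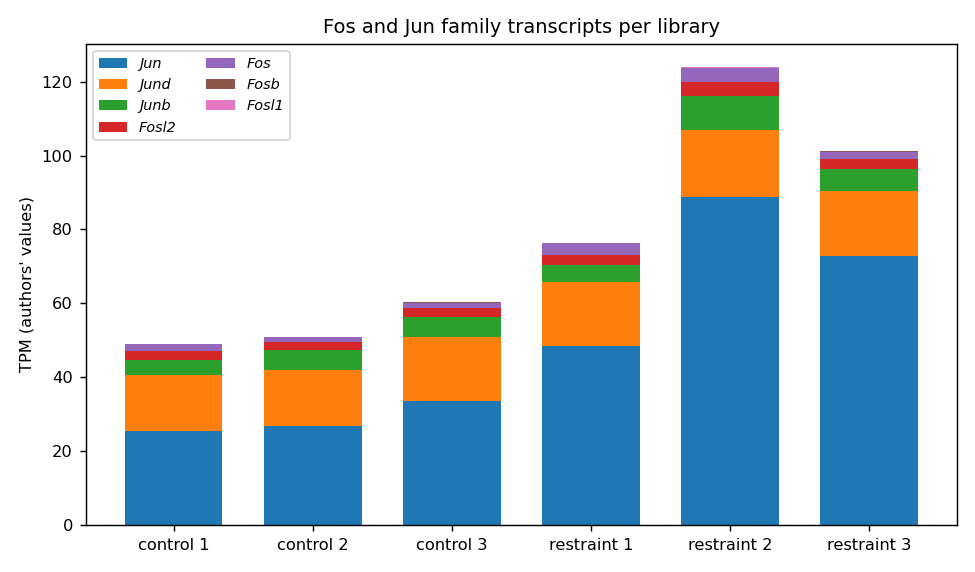
Stacked TPM (y axis, linear from 0) of the 7 Fos and Jun family genes in each of the 6 libraries (x axis). Jun is the largest block in every library, and the total runs from 49.1 to 60.3 TPM in controls and from 76.4 to 124 TPM in restraint.

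Ratios within a library do not depend on scaling between libraries, and 4, chosen after the members' values had been seen, were compared with an exact two-sided permutation test, whose smallest p with 3 against 3 is 0.1. Jun to Jund was 1.69, 1.79 and 1.94 in controls and 2.77, 4.90 and 4.08 in restraint (exact p = 0.1, 0.133 adjusted over the 4). Atf3 to Jun was 0.0905, 0.0327 and 0.063 in controls and 0.473, 0.541 and 0.431 in restraint (exact p = 0.1, adjusted 0.133). Jun to Junb also did not overlap, at 4.87 to 6.23 in controls and 9.79 to 12.3 in restraint (exact p = 0.1, adjusted 0.133). Fos to Jun overlapped, with 0.0427 to 0.0732 in controls and 0.0287 to 0.0658 in restraint (exact p = 0.5). None of these ratios could pass a threshold of 0.05 in this design.

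Messages of immediate early genes are known to be short lived through AU-rich elements in their 3′ untranslated regions. In each gene's GENCODE coding transcript with the longest such region, all 10 members had at least 1 ATTTA pentamer there, as had 70.1% of 12853 tested genes. Fos had 4 pentamers in 815 bases, Jun 4 in 1233, Maff 4 in 1221 and Atf3 3 in 1186. Junb had 2 in 485, Mafk 5 in 2134, Jund 1 in 533, Fosl2 8 in 4653, Fosl1 1 in 638 and Fosb 1 in 2302. The median per kb was 2.44 over the members and 1.30 over the tested genes, with Fosb at 0.434. The nonamer TTATTTATT was in Fos, Fosl2 and Maff, 3 of 10 members, and in 7.998% of tested genes. Jun, Junb and Jund each have a single exon in that annotation.

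Genes whose log2 CPM profile over the 6 libraries was most like that of a member were found by the root mean square (RMS) difference of profiles centred on their mean, among 10025 protein-coding genes. Nearest to Atf3 were Nr4a3, an orphan nuclear receptor of the immediate early class, Rrad, a small GTPase that inhibits calcium channels, and Ankrd1, a stretch-responsive ankyrin repeat protein, with RMS differences of 0.653, 0.674 and 0.675. Nearest to Jun were Csrnp1, Ahnak2 and Nfil3, with RMS differences of 0.123, 0.128 and 0.133. Csrnp1, a nuclear protein, stood at 2.53 to 2.75 CPM in controls, against 5.10 to 7.52 CPM in restraint. Nearest to Fos were Cited2, Klf10 and Flcn (0.154, 0.172 and 0.186), nearest to Junb were A4galt, Kdsr and Clip3 (0.0683, 0.0876 and 0.102), and nearest to Jund were Eid1, Atp6v1d and Ssbp3 (0.023, 0.0249 and 0.026). Genes with little difference between libraries have small RMS differences from each other, so these values are not comparable between members.

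Dimer partners outside the 10 were called by DESeq2 alone among the 3 tools. None of 8 tested partner genes, among them Atf2, Atf7, Jdp2 and Mafg, passed by edgeR or voom, with 2 higher and 1 lower at an unadjusted p under 0.05 and 2 higher by DESeq2. Mafg, the third small Maf gene, stood at 40.8 to 42.3 CPM in controls, against 48.6 to 56.6 CPM in restraint, with a log2 fold change of 0.37 ± 0.098 (edgeR adjusted p = 0.113). Maf, a large Maf factor, had 0.39 ± 0.105 (adjusted p = 0.112). The list median was 0.018, against -0.0053 over all features. The shares of all features to set beside this list and those below are 1.26% called higher and 0.563% lower by edgeR. They are 3.24% and 1.99% by DESeq2, 0.887% and 0.473% by voom, and 7.98% and 7.63% at an unadjusted edgeR p under 0.05.

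Bach1, a repressor that binds DNA with small Maf proteins, rose. It stood at 17.1, 18.6 and 19.6 CPM in controls, against 31.6, 40.6 and 41.6 CPM in restraint, a log2 fold change of 1.04 ± 0.129, and edgeR gave an adjusted p of 0.0116. It was the 1 call among 4 tested CNC and BACH genes, whose median was 0.73. At an unadjusted p under 0.05, 3 of the 4 were higher and none lower, and DESeq2 and voom called 3 and 1 higher and none lower. The edgeR count was 0 without control 1 and without control 2, and 2 without restraint 1. Bach2 had 1.58 ± 0.398 (adjusted p = 0.095) at 0.803 to 1.34 CPM in controls, against 1.66 to 4.99 CPM in restraint. Nfe2l2, which encodes NRF2, had 0.42 ± 0.123 (adjusted p = 0.143).

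Another list held 4 genes tied to the clock, the PAR bZIP genes Dbp, Hlf and Tef and the related repressor Nfil3. Nfil3 rose by 1.18 ± 0.121 in log2 units (adjusted p by edgeR of 0.00529). It went from 13.6, 14.5 and 14.9 CPM in controls to 27.6, 35.1 and 34.8 CPM in restraint. Dbp and Hlf, which activate through the sites that Nfil3 represses, lay below control in every restraint library without passing by edgeR. Of all features, 11.1% lay below control in that way. Dbp stood at 101.7, 142 and 113 CPM in controls, against 77.4, 27.2 and 45.2 CPM in restraint (log2 fold change -1.26 ± 0.325, adjusted p = 0.104), and Hlf had -0.74 ± 0.175 (adjusted p = 0.0821). The list had 1 gene higher and 2 lower at an unadjusted p under 0.05, 1 each way by DESeq2 and 1 higher by voom. It had 0 calls without control 1 and 2 without restraint 1. Its median was -0.44, and Tef had -0.14 ± 0.133 (edgeR adjusted p = 0.688). Of 18 CREB, ATF and C/EBP genes none passed by edgeR or voom, with 3 higher and 1 lower at an unadjusted p under 0.05 and 2 higher by DESeq2. Their median was 0.11, and 1 was called without restraint 1. Cebpd, an acute-phase transcription factor, had 1.61 ± 0.381 (adjusted p = 0.082). Its restraint libraries 1 to 3 stood at 31.3, 115 and 61.8 CPM, against 21.5 to 24.2 CPM in controls. Cebpg had 0.39 ± 0.0989 (adjusted p = 0.101).

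Genes that act upstream gave 1 call by edgeR and none by voom. Of 25 tested MAP kinases and upstream kinases, Map2k3, an activator of p38 kinases, rose from 151, 143 and 158 CPM to 206, 248.8 and 212 CPM, a log2 rise of 0.56 ± 0.11 (adjusted p by edgeR of 0.0439). It lost the call with any of the 6 libraries left out, where the list had 0 calls. At an unadjusted p under 0.05, 3 kinases were higher and 3 lower, with 1 called each way by DESeq2. Map2k6, another activator of p38 kinases, lay below control in every restraint library. It stood at 62.7 to 68.4 CPM in controls, against 46.6 to 51.1 CPM in restraint (log2 fold change -0.41 ± 0.0939, edgeR adjusted p = 0.0748). The list median was -0.011. None of 15 factors that bind AP-1 gene promoters, or are cofactors of such factors, passed by edgeR or voom. Of these, 2 were higher and 1 lower at an unadjusted p under 0.05, with 1 called each way by DESeq2. Mrtfa, a cofactor of serum response factor, had -0.65 ± 0.142 (adjusted p = 0.0618) and Stat3 had 0.60 ± 0.164 (adjusted p = 0.12). None of 14 regulators and degraders of AP-1 passed by edgeR, DESeq2 or voom, with 3 higher and 1 lower at an unadjusted p under 0.05. The last list had 1 call without restraint 1. Fbxw7, part of a ubiquitin ligase that targets Jun, had -0.44 ± 0.126 (adjusted p = 0.139), and Det1, part of another, had 0.40 ± 0.12 (adjusted p = 0.155). The medians of the last 2 lists were 0.06 and 0.158.

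Of 23 tested genes reported elsewhere as AP-1 targets, 3 rose and none fell by edgeR, with a median log2 fold change of 0.44. Of all features, edgeR called 1.26% higher, DESeq2 3.24% and voom 0.887%, and 7.98% were higher at an unadjusted edgeR p under 0.05. This list and the next were drawn up with earlier results of these data known. Tnfrsf12a, the TWEAK receptor, stood at 6.45, 6.28 and 6.95 CPM in controls, against 33.7, 49.5 and 52.6 CPM in restraint (log2 fold change 2.78 ± 0.175, adjusted p = 0.000779). Hbegf, a ligand of the epidermal growth factor receptor, stood at 7.77, 10.3 and 14.6 CPM in controls, against 32.0, 52.1 and 26.5 CPM in restraint (1.75 ± 0.291, adjusted p = 0.0251). Ccn1, a matricellular protein, was the third. At an unadjusted p under 0.05, 10 were higher and 1 was lower, and DESeq2 and voom called 6 and 3 higher and none lower. The number called was 1 without control 1 and without control 2, 2 without control 3, restraint 2 or restraint 3, and 5 without restraint 1. Other immediate early genes also gave 3 calls among 24 tested, all higher: Nr4a3, Csrnp1 and Klf10, a transcription factor of TGF-beta signalling that rose by 1.03 ± 0.183 (edgeR adjusted p = 0.0305). Their median was 0.42, and 12 were higher and none lower at an unadjusted p under 0.05, with 6 called higher by DESeq2 and 3 by voom and none lower. The number called was 1 without control 1 and without control 2, and 2 without control 3, restraint 2 or restraint 3.

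**Figure D4:**
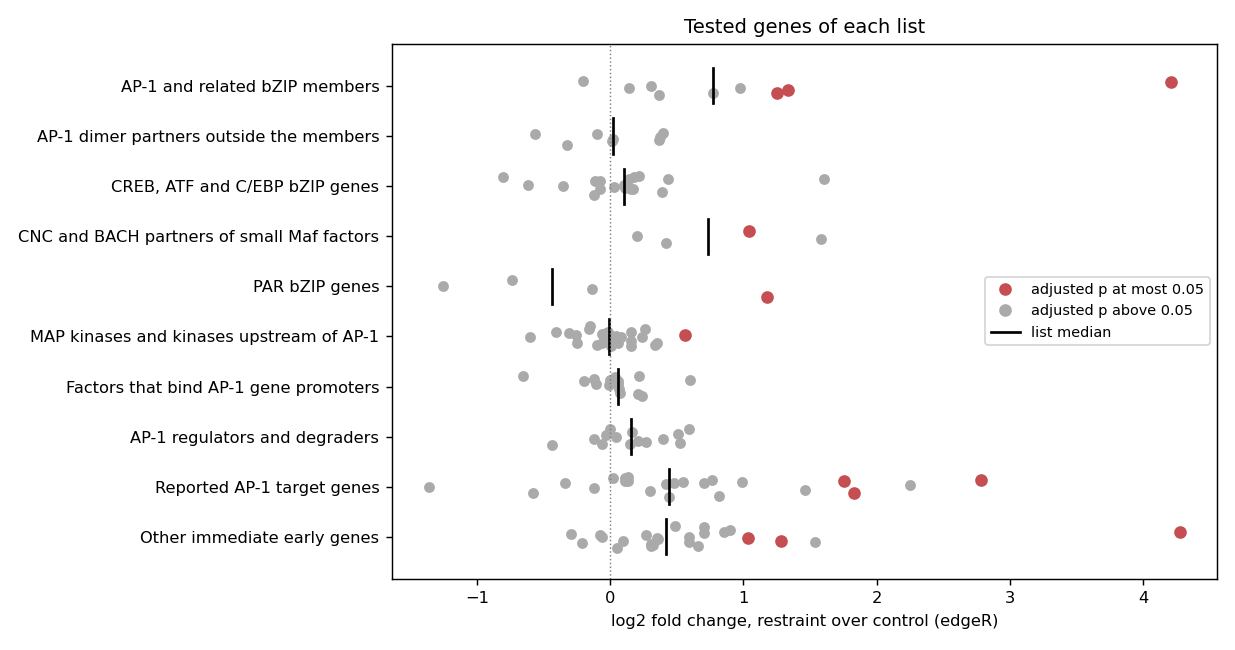
edgeR log2 fold change (x axis) of each tested gene in the 10 members and 9 other gene lists (y axis), with red for an adjusted p of at most 0.05 and black bars for list medians. Medians are 0.77 for the members, 0.73 for CNC and BACH genes, 0.44 for reported AP-1 targets and -0.011 for the kinases.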

How the data were processed

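PolyA RNA of gastrocnemius was measured in 6 libraries. Groups came from the treatment label and replicate numbers from the titles. Per the file headers, the deposited table gives whole read counts for each feature, with FPKM and TPM values that the authors computed. StringTie 2.1.3b, HISAT2 2.1.0, Trimmomatic and bcl2fastq 2.20.0 are named, with GRCm38 (mm10), in the submitters' processing notes without roles. Of 46504 features, 825 are unannotated loci that carry an identifier and were kept.

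Counts were tested across all features with edgeR 4.0.16 under R 4.3.3, by the two-sided quasi-likelihood test (glmQLFit, glmQLFTest) with TMM factors and Benjamini-Hochberg adjustment at 0.05. Low features were dropped by filterByExpr (count at least 10, total at least 15). SE comes from the log2 fold change and its F statistic. Log2 CPM used a prior count of 2. Alternatives were other scalings and filters, DESeq2 1.42.0, limma 3.58.1 (voom, or log2 TPM with a pseudocount of 1 or 0.1), robust dispersion, a replicate block, removal of unannotated loci and mitochondrial genes, and each library left out. The edgeR script was tested on simulated data. Replicates differed by more than sampling noise (chi-square over its degrees of freedom at least 28.3 for each pair). Motifs were searched in RefSeq and GENCODE sequence. Both motif searches and the 4 within-library ratios were added after the members' values were known, and part of the promoter motifs and the window length were chosen from the members' own sequences.

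The members and lists were chosen with earlier results of these data known. Named genes are all members, at most 4 called genes per list or up to 2 with none called, and the 3 most like profiles for each of 5 members. Other genes named were chosen after their values were seen.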

Additional observations from a re-analysis of the deposited data

How the results depend on the processing

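The 282 features called, 195 higher and 87 lower, became 809 with DESeq2, 122 and 112 with limma on log2 TPM with a pseudocount of 1 and 0.1, and 60 with a replicate block, and ran from 16 (without control 1) to 350 (without restraint 1) with a library left out. Same-numbered libraries did not deviate together (correlations of 0.0137, -0.201 and -0.209), and only the libraries numbered 1 correlated best with their own number. Deviations were taken from each group's own mean of 3 libraries, so these correlations are not independent of each other. Whether same-numbered libraries shared a batch was not tested. Members called higher numbered 5 with DESeq2, 2 with the block (Jun and Atf3), and 1 to 3 with a library left out, Atf3 in each, while none was called lower in any setting run. Maff missed the threshold in the block fit (adjusted p = 0.0628), by voom and on log2 TPM (0.0871 and 0.0825). Fosb turned from -0.21 to 0.051 without restraint 1, with no call in either fit, and ran from -0.47 to 0.051 with a library left out. The directions of the other 8 members tested held in all settings run. With a library left out, list calls ran from 0 to 2 for CNC and BACH genes and for PAR bZIP genes with Nfil3. They ran from 0 to 1 for CREB, ATF and C/EBP genes and for AP-1 regulators. For kinases, dimer partners and promoter-binding factors with their cofactors they ran from 0 to 0. For AP-1 targets they ran from 1 to 5, and for other immediate early genes from 1 to 3. The cause was not tested. Depth limits Fosb and Fosl1, at no more than 13 reads per library.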
